A study of Mus musculus with 44 samples.

Results

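The comparison described here is that of virally expressed RXRa with EGFP alone in the D2 neurons of the nucleus accumbens of female mice. It holds 8 of the 44 samples of the series, 4 with EGFP (replicates 1, 3, 4 and 5) and 4 with RXRa (replicates 2, 3, 4 and 5), chosen by sex, cell type and vector label. Both groups received an AAV9 vector infused into the nucleus accumbens, in which the CAG promoter drives an insert that is switched on by Cre recombinase (DIO). The control vector, AAV9-CAG-DIO-EGFP, encodes EGFP, and AAV9-CAG-DIO-EGFP-P2A-RXRa encodes EGFP joined to RXRa by a self-cleaving peptide, so EGFP and the viral infusion are common to all 8. A D2 female library whose title and vector label name different vectors entered no group. The labels give the cell type as D2, and the sorting of nuclei is known from the design of the study; the Cre line and the age of the animals are not given in the sources used here. Nothing in the labels says which animals or pools each library came from, so p-values measure the spread between these samples, which may be technical.

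RXRa is a nuclear receptor that binds DNA in pairs with other receptors, among them the retinoic acid receptors (RARs), and turns genes on or off in response to ligands such as retinoic acid. D2 neurons are the striatal projection neurons that express the dopamine D2 receptor (Drd2), the adenosine A2a receptor (Adora2a) and the enkephalin precursor (Penk). Dopamine acting on Drd2 lowers the activity of adenylyl cyclase 5 (Adcy5), and adenosine acting on Adora2a raises it. The question was which genes differ in these neurons when RXRa is supplied in excess.

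The vector sequences matched the labels. The RXRa sequence of the vector had 6, 4, 6 and 5 counts in EGFP replicates 1, 3, 4 and 5, and 5108, 2889, 13017 and 5719 counts in RXRa replicates 2, 3, 4 and 5. In CPM, the per-million scale of a library's counts after TMM normalization, this was 0.299 ± 0.0497 (SD, n = 4) with EGFP and 392 ± 229 (SD, n = 4) with RXRa, and the groups did not overlap (exact two-sided permutation test, p = 0.0286, the smallest p that 4 against 4 allows). The RXRa sequence had 1.01 to 1.12 times the counts of the GFP sequence in the RXRa libraries. The GFP sequence itself stood at 310 to 854 CPM with EGFP and 181 to 637 CPM with RXRa, overlapping ranges (exact two-sided permutation test, p = 0.343).

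The endogenous gene Rxra (chromosome 2, 27676440 to 27762957, GRCm38) did not stand above the level of silent genes. Its level was 41.0, 33.0, 33.0 and 31.3 CPM in EGFP replicates 1, 3, 4 and 5, and 29.9, 31.9, 34.3 and 37.5 CPM in RXRa replicates 2, 3, 4 and 5. The groups overlapped, with a log2 fold change of -0.05 ± 0.12 (SE) and an adjusted p of 0.792 by edgeR's quasi-likelihood test with Benjamini-Hochberg adjustment (exact two-sided permutation test of the levels, p = 0.686).

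Every value in these libraries sits on a uniform background of counts, which was measured first because it differed between libraries. It was read from genes for which the bulk accumbens libraries of the series held 0 counts. Silent-gene density here means the median, over 1576 such genes (autosomal, protein-coding, 5 kb or longer), of CPM divided by the gene's length in kb. Across the 8 libraries the density was nearly the same for short and long silent genes. In 5 length classes its median over libraries lay between 0.486 and 0.538 CPM per kb. A gene's CPM divided by what its length would give at that density is its ratio to background: a ratio of 1 is the level of a silent gene.

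Silent-gene density was 0.505, 0.528, 0.524 and 0.563 CPM per kb in EGFP replicates 1, 3, 4 and 5, and 0.488, 0.537, 0.388 and 0.437 CPM per kb in RXRa replicates 2, 3, 4 and 5. The mean log2 difference, RXRa minus EGFP, was -0.21 (exact two-sided permutation test, p = 0.114), and the ranges overlapped through RXRa replicate 3; without that library the difference was -0.28 (exact permutation test, p = 0.0286). Multiplied by the length that annotated genes cover, the density leaves 33.3%, 33.5%, 33.1% and 29.1% of counts above background in the EGFP libraries and 43.5%, 32.8%, 63.0% and 50.4% in the RXRa libraries (exact two-sided permutation test, p = 0.114). RXRa replicate 3 therefore lay among the EGFP libraries, and RXRa replicate 4 had the lowest background of the 8. In the D2 male libraries the same share was 29.5% to 40.0% with EGFP (n = 5) and 33.6% to 59.3% with RXRa (n = 4). Total counts were 13757258 to 19278855 in the EGFP libraries and 13769323 to 23366477 in the RXRa libraries.

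**Figure D1:**
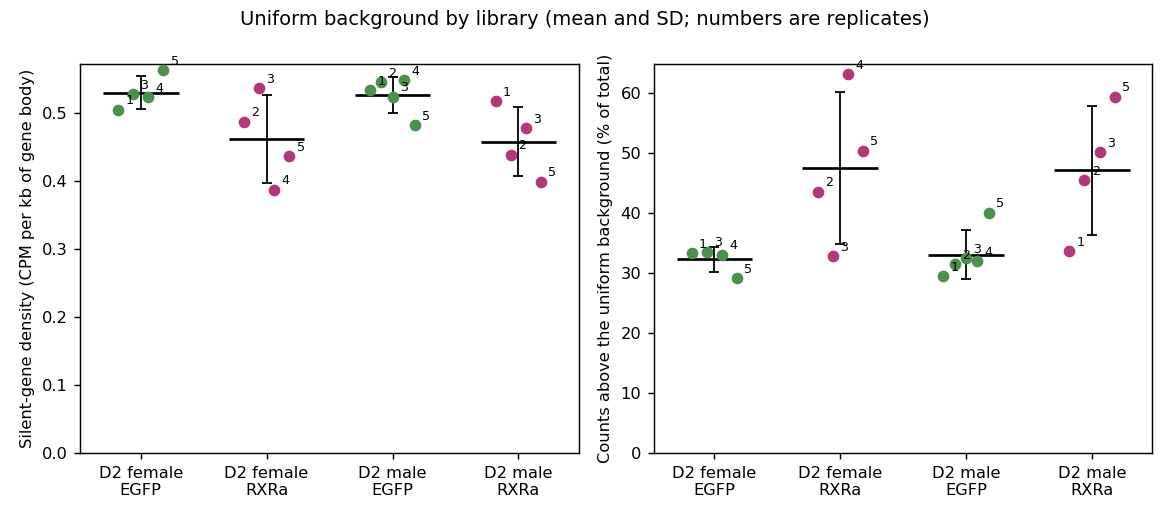
Silent-gene density (left, CPM per kb) and the percent of counts above the uniform background (right) in each D2 library, with group mean and SD as bars and replicate numbers beside the points. RXRa replicates 4 and 5 of the females have the lowest densities of the 8 female libraries, 0.388 and 0.437 CPM per kb, and RXRa replicate 3 lies with the EGFP libraries.

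The libraries carried the markers of D2 neurons. Penk had a ratio to background of 74.9 to 383 over the 8 libraries, Gpr6, an orphan receptor of these neurons, 10.1 to 50.6, Drd2 14.7 to 68.2 and Adora2a 3.97 to 17.7. Of the 7 D2 markers matched to a gene, only these 4 reached a ratio of at least 3 in all 8 libraries. The median ratio of the 7 was 3.97 to 8.85 in the EGFP libraries and 6.43 to 17.7 in the RXRa libraries. The D1 marker Drd1 stood at 2.83 to 13.9, Tac1 at 2.64 to 8.14 and Pdyn at 1.27 to 2.59. Over the 15 markers of striatal projection neurons the median ratio was 3.25 to 3.92 in the EGFP libraries and 3.85 to 10.8 in the RXRa libraries.

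Markers of other cells stood near the level of silent genes. The median ratio of the list was 0.82 to 1.12 for 6 astrocyte markers, 1.07 to 1.39 for 6 oligodendrocyte markers, 0.70 to 1.22 for 4 oligodendrocyte precursor markers, 0.82 to 1.24 for 6 microglia markers and 0.75 to 1.10 for 4 endothelial markers. It was 1.06 to 1.36 for 6 cortical excitatory markers, 1.05 to 1.41 for 9 interneuron markers and 0.81 to 1.40 for 4 blood cell markers. Summed over the list, astrocyte markers were 139 to 156 CPM with EGFP and 116 to 140 CPM with RXRa, and microglia markers 119 to 132 CPM and 114 to 127 CPM. None of these lists had a member above background in all 8 libraries.

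**Figure D2:**
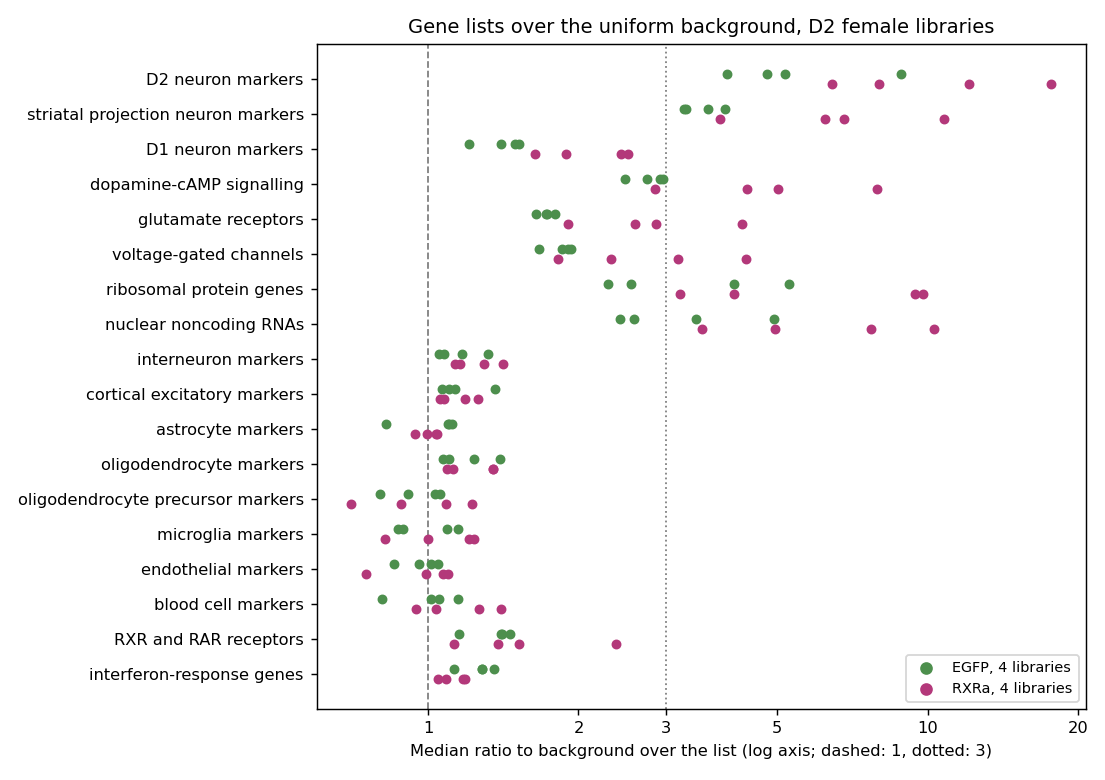
Median ratio to background over each gene list (log axis), 1 point per D2 female library, green for EGFP and magenta for RXRa, with dashed and dotted lines at 1 and 3. Markers of D2 and striatal projection neurons lie above the lists of glial, endothelial, cortical and blood cell markers, which lie between 0.70 and 1.41.

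Few genes could be measured clear of the background. In all 8 libraries, 1936 genes reached a ratio of at least 3, which is called above background here. Of these, 1544 had a gene body under 1 kb and 316 were protein-coding. Over all protein-coding genes the median of the mean ratio was 1.32. These ratios rest on gene-body length, and whether the deposited counts cover exons or whole gene bodies is not given in the sources used here. With exon length 10654 genes were above background. Statements on named genes below rest on the 316 protein-coding genes unless a gene is said to lie lower.

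No gene passed the test between RXRa and EGFP. Of 43902 genes tested by edgeR's quasi-likelihood test with Benjamini-Hochberg adjustment, 0 (0%) had an adjusted p under 0.05; the lowest adjusted p was 0.0954, shared by 1893 genes. At an unadjusted p under 0.05 there were 11079 genes, 6740 of them higher with RXRa (15.4% of genes tested) and 4339 lower (9.88%). In 1149 genes (2.62%) every RXRa library lay above every EGFP library, and in 1542 (3.51%) every one lay below. The result turned on RXRa replicate 3: without it 6701 genes were called, 4556 of them higher, whereas leaving out any other of the 8 libraries gave 0. DESeq2 called 3027 genes on the same counts, 2675 of them higher. The split of genes at an unadjusted p under 0.05 depended on the scaling. It was 7631 higher and 3107 lower with RLE size factors, 2294 and 11573 with library totals alone, and 431 and 10342 with TMM computed over genes above background.

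Fold changes were also described by how far a gene stood above background on average over the 8 libraries. Since the RXRa libraries enter that average, a gene higher with RXRa is moved to a higher class by the difference itself, and the female values are a description only. Genes with a mean ratio of 1 to 1.5 had a median log2 fold change of -0.13, genes at 2 to 3 had 0.26, genes at 5 to 10 had 0.13, and genes at more than 10 had 0.66. Among genes at 2 to 3, 40.2% had an unadjusted p under 0.05 and were higher, and 3.32% lower. Among the 15473 genes at 1 to 1.5 the same counts were 932 higher and 2473 lower. In the D2 male comparison the medians of these 4 classes were -0.06, 0.21, 0.16 and 0.35. The lower silent-gene density of RXRa replicates 2, 4 and 5 goes with these differences, and its part in them was not tested.

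**Figure D3:**
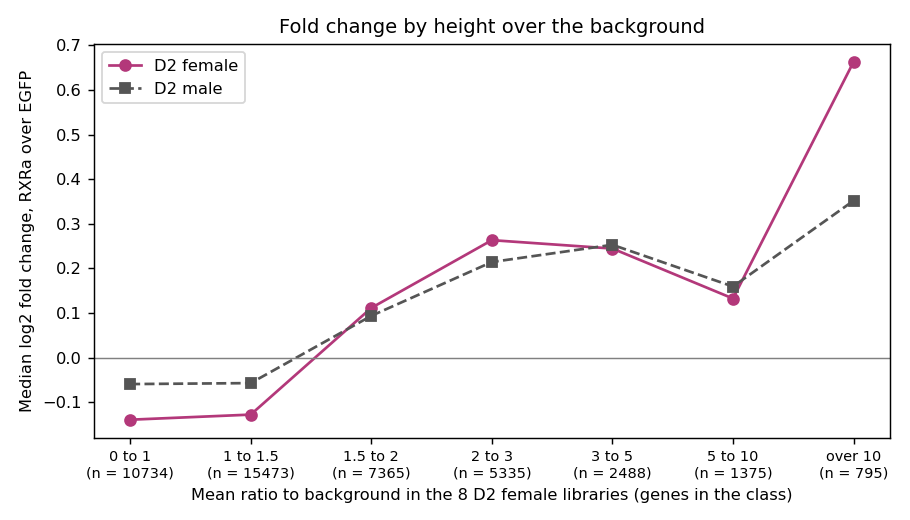
Median log2 fold change, RXRa over EGFP, in classes of genes by their mean ratio to background in the 8 D2 female libraries, with the number of genes in each class. The classes use the RXRa libraries too, so the female values are a description; the median goes from -0.14 in genes at or under a ratio of 1 to 0.66 in genes above 10 in females, and in males from -0.06 to 0.35.

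Among the 316 protein-coding genes above background, 283 were higher and 33 lower, and the median log2 fold change was 0.68 against -0.06 over all genes tested. The medians of both sets were 0.48 and -0.25 with library totals alone and 0.30 and -0.42 with TMM over genes above background, so their distance was 0.72 to 0.75 under these scalings and RLE size factors. With silent-gene density as a covariate the median of the 316 was 0.28, a distance of 0.27, with 11 higher and 0 lower at an unadjusted p under 0.05. With a replicate block, which compares libraries of the same number, it was 0.37, a distance of 0.40. EGFP replicate 1 and RXRa replicate 2 have no partner of the same number and did not inform that value. The fold changes below are on the TMM scale of all genes. They can be read against -0.06 for all genes and, for genes above background, against the 0.68 of these 316. At an unadjusted p under 0.05 there were 159 higher (50.3%) and 1 lower (0.316%). Against the mean of the EGFP libraries, the median log2 level of these genes was 0.98 in RXRa replicate 2, 0.23 in replicate 3, 1.13 in replicate 4 and -0.06 in replicate 5, and -0.39, 0.50, -0.02 and -0.31 in EGFP replicates 1, 3, 4 and 5. RXRa replicates 2 and 4 thus lay above all EGFP libraries, while replicates 3 and 5 lay below EGFP replicate 3.

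To set the background aside, a net share was computed for each gene: its CPM minus the background expected for its length, put on a per-million scale of the library's counts above background. This scale was chosen after seeing the data. The same 316 genes stood at a median of 0.10 on the log2 scale of net shares, with 215 higher and 101 lower, 3 higher and 31 lower at an unadjusted p under 0.05 by limma, and none called (lowest adjusted p 0.176; over all genes 18 were called, 3 of them higher). The D2 male comparison had a median of 0.00 on the net share. Over all 43848 genes with a length, 1897 (4.33%) were higher and 4415 (10.1%) lower at an unadjusted p under 0.05 on the net share.

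The RXRa libraries differed from one another by gene length. Among 1376 protein-coding genes with a mean ratio of at least 3 over the 8 libraries, those up to 5 kb had a median log2 level against the EGFP mean of 0.90 in RXRa replicate 2, 0.20 in replicate 3, 0.82 in replicate 4 and -0.23 in replicate 5. In genes over 200 kb the same values were 0.40, 0.05, 1.20 and 0.76. RXRa replicate 5 thus lay below the EGFP mean for short genes and above it for long ones, whereas replicate 2 lay further above it for short genes than for long ones. In EGFP replicates 1 and 3 the short genes stood at -0.40 and 0.56 and the long ones at -0.11 and -0.01. Genes could enter this set through the group in which they were high, so these levels describe the libraries and are not read as a difference between the groups.

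Drd2 (chromosome 9, 49340627 to 49408177) had the largest difference of the D2 markers. Its level was 596, 525, 533 and 651 CPM in EGFP replicates 1, 3, 4 and 5 and 954, 616, 1788 and 1493 CPM in RXRa replicates 2, 3, 4 and 5. Only RXRa replicate 3 lay inside the EGFP range. The means were 576 ± 59.4 and 1213 ± 527 CPM (SD, n = 4 each), a log2 fold change of 1.07 ± 0.23 (SE, unadjusted p = 4.59e-05), which did not pass adjustment (edgeR, adjusted p = 0.0954). The net share of Drd2 was 1822, 1502, 1574 and 2166 with EGFP and 2007, 1811, 2182 and 2703 with RXRa, overlapping ranges with a log2 fold change of 0.30 ± 0.17 (limma, adjusted p = 0.414). In D2 males Drd2 differed by 0.43 by CPM and -0.23 by net share.

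Adora2a (chromosome 10, 75316877 to 75334784) was measured at 43.1, 83.8, 48.5 and 40.0 CPM with EGFP and 105, 61.9, 123 and 62.6 CPM with RXRa. The ranges overlapped through EGFP replicate 3, and the log2 fold change was 0.71 ± 0.28 (SE; edgeR, adjusted p = 0.126). Penk (chromosome 4, 4133531 to 4138819) was measured at 223, 693, 309 and 223 CPM with EGFP and 785, 414, 786 and 237 CPM with RXRa, with a log2 fold change of 0.61 ± 0.48 (edgeR, adjusted p = 0.419). EGFP replicate 3 was the highest EGFP library for Penk, Adora2a and Gpr6, and RXRa replicate 5 the lowest RXRa library for Penk and Gpr6. On the net share the differences were 0.15 for Adora2a, -0.08 for Penk and 0.01 for Gpr6 on the log2 scale, so direction for Penk depended on the scale. The D1 marker Drd1 differed by 0.77 ± 0.37 (edgeR, adjusted p = 0.189), Tac1 by 0.65 and Pdyn by 0.29.

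Among the 316 protein-coding genes above background, 10 with a mean CPM of at least 5 had groups that did not overlap, 9 higher and 1 lower. Over all genes tested, the groups did not overlap in 2.62% with RXRa higher and in 3.51% with RXRa lower. The higher ones were Tial1 and Tardbp, which encode RNA-binding proteins, Srsf5, a splicing factor, Luc7l2, a protein of the splicing machinery, Gria2, a subunit of AMPA glutamate receptors, Syt1, the calcium sensor of synaptic vesicle release, Neto1, an auxiliary subunit of kainate receptors, Ube3a, a ubiquitin ligase, and Ivns1abp. Their log2 fold changes were 0.79 to 1.00, each with an adjusted p of 0.0954 (edgeR). They were chosen by these values, which are given as a description.

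Gria2 (chromosome 3, 80681450 to 80802835) was measured at 386, 644, 534 and 490 CPM with EGFP and 1027, 645, 1405 and 769 CPM with RXRa. Tardbp (chromosome 4, 148612382 to 148627019) was at 27.5, 39.3, 36.0 and 29.5 CPM with EGFP and 70.2, 41.3, 77.9 and 43.0 CPM with RXRa. Srsf5 (chromosome 12, 80945504 to 80950507) was at 36.3, 57.9, 51.9 and 34.9 CPM with EGFP and 126, 66.5, 110 and 60.4 CPM with RXRa. In all 3 the lowest RXRa library was replicate 3 or 5, and the gap to the highest EGFP library was narrow. Ube3a (chromosome 7, 59228750 to 59311536) was at 187, 248, 248 and 236 CPM with EGFP and 401, 263, 689 and 405 CPM with RXRa; it overlaps 1 annotated gene on its own strand and 5 on the other, and whether the counting used strand is not given in the sources used here, so its counts are uncertain.

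By net share 2 of the 9, Luc7l2 and Ube3a, had groups that did not overlap. Luc7l2 had 227, 269, 273 and 284 with EGFP and 313, 304, 324 and 309 with RXRa. The net-share log2 fold changes of the 9 were 0.25 to 0.36, of which 3 had an unadjusted p under 0.05 and none passed adjustment (limma, lowest adjusted p 0.263). With silent-gene density as a covariate the 9 stood at 0.37 to 0.64 (edgeR, lowest adjusted p 0.844). In D2 males all 9 were higher by 0.52 to 0.74, each at an unadjusted p under 0.05. At that p in males, 211 of the 316 protein-coding genes above background were also higher and 3 lower, and 12% of all genes were higher and 7.72% lower. The male net-share differences of the 9 were -0.02 to 0.12, from Tardbp to Srsf5, with no p under 0.05 before adjustment. The male libraries shared the fit, and so the estimate of spread, from which the 9 were chosen.

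Aida was the gene of the opposite direction. It was measured at 87.4, 78.5, 79.3 and 98.5 CPM with EGFP and 71.7, 75.6, 71.3 and 78.3 CPM with RXRa, so the ranges were separated by a narrow gap, with a log2 fold change of -0.22 ± 0.14 (edgeR, adjusted p = 0.315). By net share the difference was -0.91 ± 0.33, again without overlap, with an unadjusted p of 0.0109 (limma, adjusted p = 0.239). In D2 males the values were -0.24 on the CPM scale and -0.89 on the net share.

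**Figure D4:**
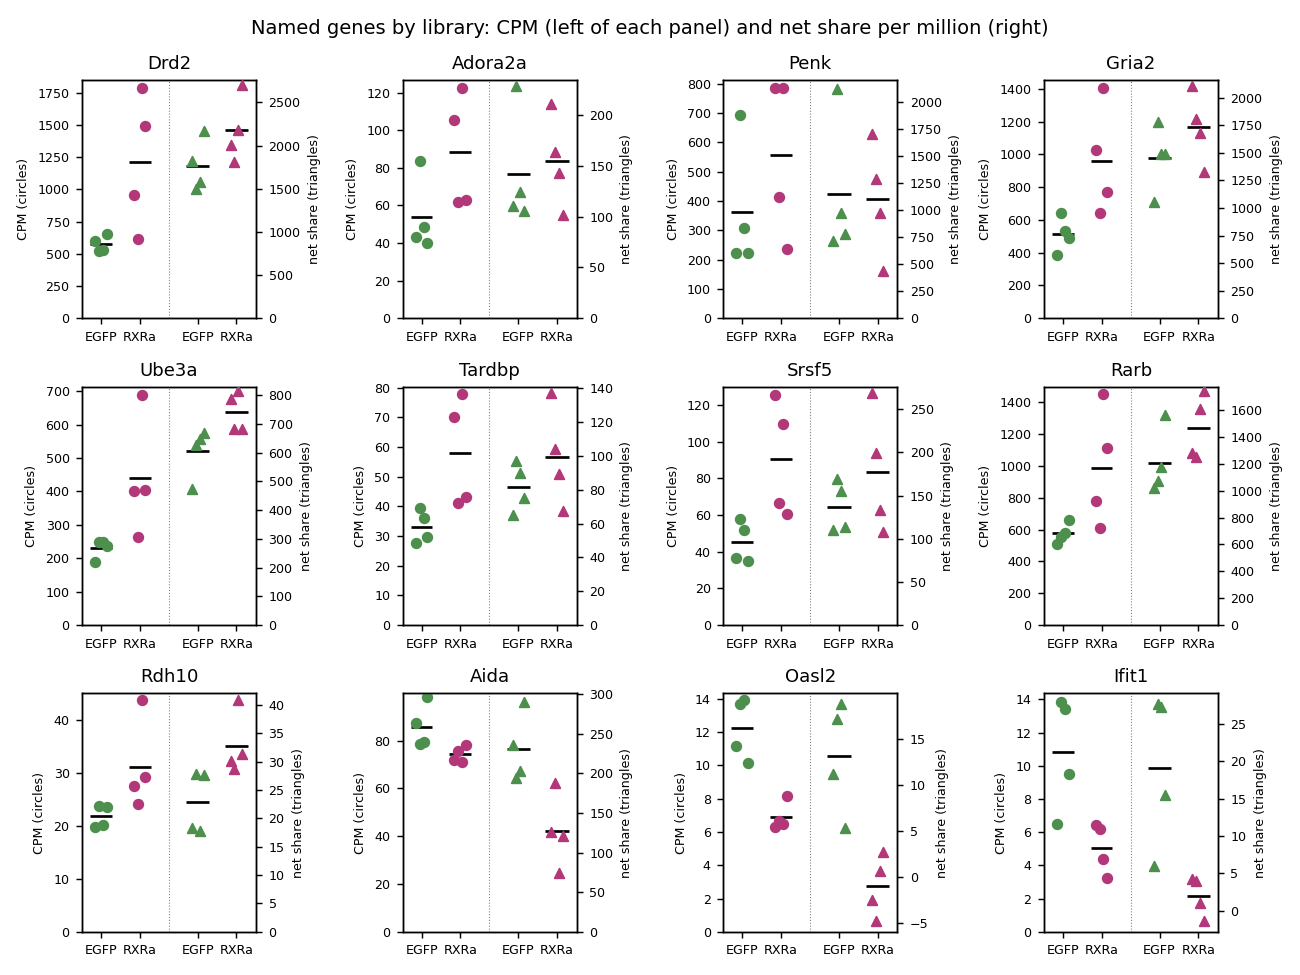
CPM (circles, left axis) and net share on its per-million scale (triangles, right axis) of 12 named genes in the 4 EGFP (green) and 4 RXRa (magenta) D2 female libraries, with group means as bars and every axis including 0. Drd2 is at 525 to 651 CPM with EGFP and 616 to 1788 with RXRa, and its net shares overlap.

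Genes of dopamine and cAMP signalling were higher in 28 of 30 members tested, with a median log2 fold change of 0.59; 22 were higher and 0 lower at an unadjusted p under 0.05, and none was called. The share of genes higher at that p, to be set beside the counts of this and the following lists, was 15.4% over all genes and 50.3% over protein-coding genes above background. Ric8b, a chaperone of G protein alpha subunits, differed by 0.64 ± 0.19, Arpp21 by 0.66 ± 0.20, Rgs9, which speeds the shut-off of G protein signals, by 0.77 ± 0.26 and Adcy5 by 0.77 ± 0.26. All 15 markers of striatal projection neurons were higher, 13 of them at an unadjusted p under 0.05, among them the transcription factor Meis2 (0.86 ± 0.25). On the net share the medians of the 2 lists were both 0.13, and 1 member of the first and 1 of the second were higher at that p. Among receptors and neuropeptides of the striatum, 19 of 21 were higher (median 0.48), including the muscarinic receptor Chrm1 (0.49 ± 0.24).

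Genes of channels and synapses were mostly higher on the CPM scale. Of 33 voltage-gated channel genes, 30 were higher, 23 of them at an unadjusted p under 0.05 (all genes, 15.4%), with a median of 0.42. The potassium channel genes Kcnq5 (0.92 ± 0.27), Kcna4 (0.88 ± 0.29), Kcnd2 (0.86 ± 0.28) and Kcna1 (0.76 ± 0.30) had the smallest p among those above background. Of 23 glutamate receptor genes, 17 were higher, all 17 at that p, and 6 lower, none at that p. Among those above background, Gria2 had the smallest p, followed by Gria1 (0.77 ± 0.23), Grm5 (0.76 ± 0.24) and Grin1 (0.67 ± 0.29). In 4 of the 23 the groups did not overlap with RXRa higher, beside 2.62% over all genes. Gria2 was among these 4, and Gria1, Grm5 and Grin1 were not.

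Of 14 GABA receptor genes 13 were higher (median 0.46), 9 at an unadjusted p under 0.05 (all genes, 15.4%), with Gabbr1, a GABA-B receptor subunit, at 0.65 ± 0.31. All 20 synaptic adhesion and scaffold genes were higher (median 0.49), 16 at that p, with Nrxn3, a presynaptic adhesion gene, at 0.81 ± 0.25. None of these genes was called. Counts are uncertain for Grm5, which overlaps 5 annotated genes on its own strand, and for Kcnq5, Kcnd2 and Nrxn3, which overlap 3 each. The medians by net share were 0.14 for channels, 0.12 for glutamate receptors, 0.18 for GABA receptors and 0.25 for adhesion and scaffold genes. In D2 males the CPM medians were 0.34, 0.32, 0.38 and 0.40.

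Members of the housekeeping lists were higher as well. All 14 ribosomal protein genes were higher, with a median of 0.55, 3 of them at an unadjusted p under 0.05, near the 15.4% of all genes and under the 50.3% of protein-coding genes above background, and Rpl5 and Rps3 stood at 0.53 ± 0.28 and 0.73 ± 0.38. All 16 nuclear-encoded respiratory chain genes were higher (median 0.53), 8 at that p, with the ATP synthase subunits Atp5b and Atp5a1 at 0.83 ± 0.39 and 0.70 ± 0.37. By net share their medians were 0.08 and 0.23. Of the 11 mitochondrially encoded genes tested, 11 were higher by CPM (median 0.43) and none at an unadjusted p under 0.05; the median on the net share was -0.31. Leaving out 1 library moved the CPM median between -0.09, without RXRa replicate 2, and 0.71, without RXRa replicate 5. mt-Cytb spread widely between libraries, at 25.6 ± 12.3 CPM with EGFP and 37.5 ± 26.1 CPM with RXRa.

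Long noncoding RNAs retained in the nucleus had the highest median of the 28 lists, 0.75, with 9 of 10 higher and 7 at an unadjusted p under 0.05 (all genes, 15.4%). Meg3, an imprinted RNA whose counts are uncertain because 4 annotated genes on its strand and 1 on the other overlap it, was measured at 412, 619, 589 and 413 CPM with EGFP and 1137, 695, 1398 and 968 CPM with RXRa, without overlap, a log2 fold change of 1.04 ± 0.24 (edgeR, adjusted p = 0.0954). Snhg11 differed by 0.98 ± 0.27, Rian by 0.88 ± 0.27 and Malat1 by 0.53 ± 0.32. Rian overlaps 19 annotated genes on its own strand and Snhg11 overlaps 2, so their counts are uncertain too. By net share Meg3 stood at 0.34 (limma, unadjusted p = 0.0274) and Malat1 at -0.16, and the median of the list was 0.27 with 4 members higher at that p. The D2 male median by CPM was 0.58.

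Activity-induced immediate early genes had no common direction. Of 16, 10 were higher and 6 lower, with a median of 0.08, and at an unadjusted p under 0.05 there was 1 in each direction. Egr1, a transcription factor induced by neuronal activity, differed by 0.20 ± 0.35 and Arc, a synaptic protein induced likewise, by 0.22 ± 0.42, and both had a negative value on the net share (-0.37 and -0.40) and with TMM over genes above background (-0.15 and -0.13). The median was negative without EGFP replicate 5 or RXRa replicate 4, and leaving out 1 library moved it between -0.11 and 0.18. In D2 males the median of the list was -0.21.

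**Figure D5:**
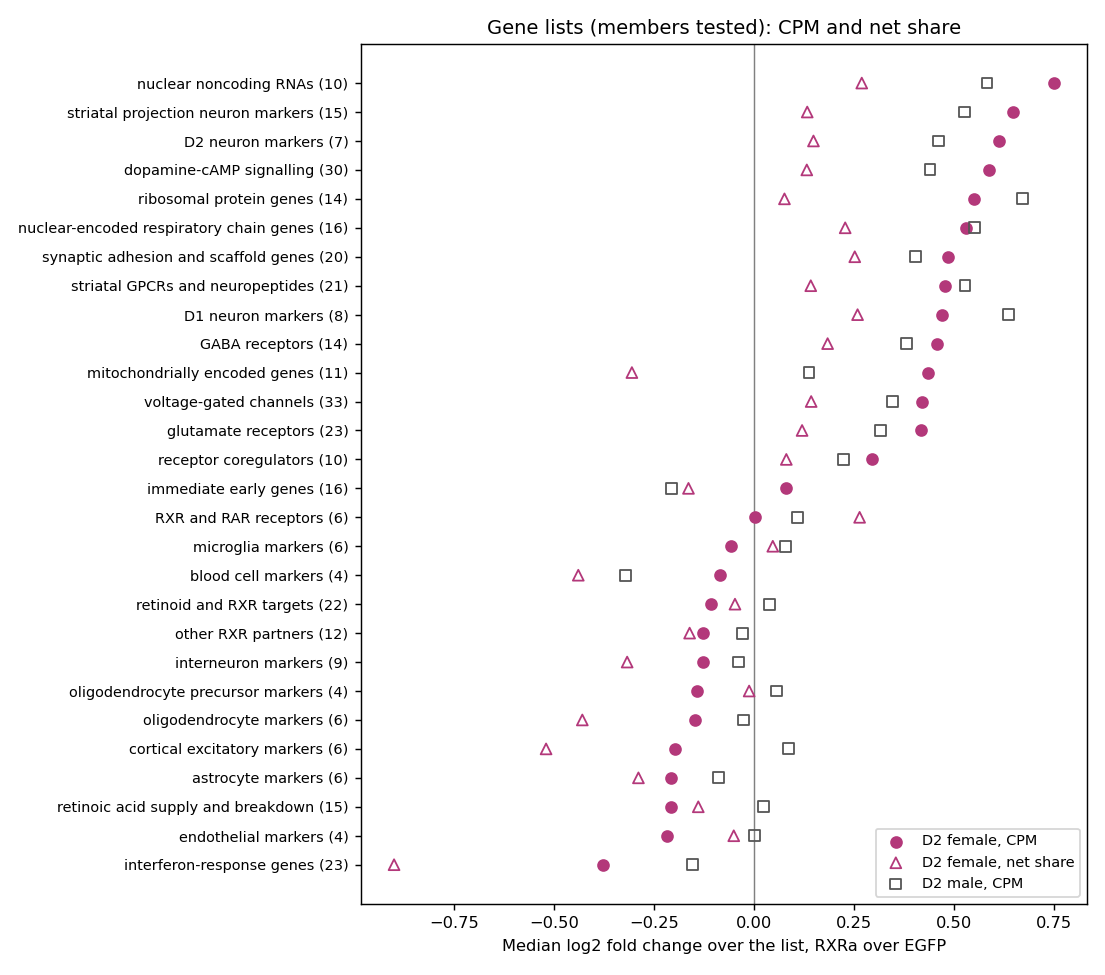
Median log2 fold change, RXRa over EGFP, of each gene list by CPM in D2 females (filled circles), by net share in D2 females (triangles) and by CPM in D2 males (squares), with the number of members tested. Among the 28 lists, nuclear noncoding RNAs lie highest by CPM in females, at 0.75, and interferon-response genes lowest, at -0.38.

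Rarb, the retinoic acid receptor beta, is a classical target of retinoic acid. Its promoter is shown because it holds the site through which RAR and RXR pairs are known to act on it, and because Rarb had the largest difference of the 6 receptor genes. The window is 300 bases at chr14:16575427-16575726, minus strand (RefSeq, GRCm38.p6), from 250 bases before to 50 after an annotated start that lies inside the gene body, and capitals mark the direct repeat.
Rarb promoter: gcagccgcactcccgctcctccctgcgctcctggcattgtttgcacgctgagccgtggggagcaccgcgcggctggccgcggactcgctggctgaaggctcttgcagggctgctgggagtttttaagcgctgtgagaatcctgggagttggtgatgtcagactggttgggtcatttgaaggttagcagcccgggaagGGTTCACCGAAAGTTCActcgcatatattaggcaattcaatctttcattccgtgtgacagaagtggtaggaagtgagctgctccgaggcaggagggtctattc

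The repeat consists of GGTTCA and AGTTCA spaced by 5 bases and ends 37 bases before the start. The search took any 2 half-sites in the same direction, where a half-site could be AGGTCA or also AGTTCA or also GGTTCA or also GGGTCA, spaced by 1 to 5 bases, on both strands. A repeat spaced by 5 was found in 32 of 32851 promoter windows (0.0974%), and a repeat of any of these spacings in 230 (0.7%). Among the 24 windows of 14 retinoid and RXR target genes, 2 held the former, those of Rarb and Cyp26a1. None of the 11 windows matched to 8 of the 9 genes named above as higher without overlap held any. A match says only that these letters are present.

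Rarb (chromosome 14, 16430839 to 16819156) was measured at 511, 554, 575 and 663 CPM with EGFP and 777, 608, 1452 and 1112 CPM with RXRa. Only RXRa replicate 3 fell inside the EGFP range. The ratio to background was 2.61 to 3.03 with EGFP and 2.92 to 9.64 with RXRa, so it did not reach 3 in every library. The log2 fold change was 0.77 ± 0.25 (edgeR, unadjusted p = 0.00405, adjusted p = 0.0954), and on the net share 0.29 ± 0.22 (limma, adjusted p = 0.588), where the ranges overlapped. It overlaps 2 annotated genes on the opposite strand. In D2 males Rarb differed by 0.41 by CPM (edgeR, adjusted p = 0.321) and by -0.09 on the net share. In D1 females it differed by 0.62 by CPM (edgeR, adjusted p = 0.787).

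Rxrg, the RXR isotype typical of the striatum, was at 50.1, 57.4, 45.6 and 46.5 CPM with EGFP and 68.3, 50.4, 74.1 and 77.7 CPM with RXRa. Its ratio to background was 2.00 to 2.63 with EGFP and 2.27 to 4.63 with RXRa, so it did not reach 3 in every library. RXRa replicate 3 again lay inside the EGFP range, and the log2 fold change was 0.43 ± 0.16 (edgeR, adjusted p = 0.115), with 0.04 on the net share. Rara and Rarg, like Rxra, lay at ratios of 0.66 to 1.31, the level of silent genes, and differed by -0.15 ± 0.16 and -0.02 ± 0.12. Rxrb stood at ratios of 1.51 to 1.87 with EGFP and differed by 0.03 ± 0.17. The median of the 6 receptor genes was 0.00, and -0.37 with TMM over genes above background. No receptor gene was called.

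The wider retinoid pathway held few genes above background. Of 15 genes of retinoic acid supply and breakdown, 4 were higher and 11 lower, with a median of -0.21. At an unadjusted p under 0.05, 1 was higher and 5 were lower, beside 15.4% and 9.88% of all genes, and none was above background in all 8 libraries. Rdh10, which makes retinal from retinol in the first step to retinoic acid, was the 1 that was higher at that p; it is named here after its values were seen. It was measured at 19.8, 23.9, 20.3 and 23.6 CPM with EGFP and 27.5, 24.2, 43.9 and 29.2 CPM with RXRa, without overlap, at ratios of 1.39 to 4.04. The log2 fold change was 0.51 ± 0.13 (edgeR, adjusted p = 0.0954), and on the net share 0.52 ± 0.16 (limma, adjusted p = 0.176), again without overlap. In D2 males Rdh10 differed by 0.20 by CPM and 0.01 on the net share. The male difference by CPM had an unadjusted p of 0.114, and the female and male differences were not called apart by the interaction test of the sexes.

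Among 22 known retinoid and RXR targets, 7 were higher and 15 lower, with a median of -0.11 beside -0.06 over all genes; 6 were higher and 3 lower at an unadjusted p under 0.05, beside 15.4% and 9.88% of all genes. Only Scd2, a fatty acid desaturase (0.68 ± 0.32), and Apoe, the lipid carrier (-0.44 ± 0.52), were above background in all 8 libraries, and neither passed the test (edgeR, adjusted p = 0.181 and 0.598). Klf9, a transcription factor named after its values were seen, differed by 0.46 ± 0.19 at ratios of 1.97 to 6.31. Of 12 other RXR partners, 4 were higher and 8 lower (median -0.13), with the thyroid hormone receptor Thra, also named after its values were seen, at 0.70 ± 0.26 and ratios of 2.00 to 7.62. Of 10 coregulators of nuclear receptors, 9 were higher (median 0.29, or -0.07 with TMM over genes above background), 7 at an unadjusted p under 0.05, and none was above background in all 8 libraries.

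Interferon-response genes, which limit viral infection, were lower in all 23 members, with a median log2 fold change of -0.38 beside -0.06 over all genes, and -0.34 with RLE size factors, -0.56 with library totals and -0.72 with TMM over genes above background. At an unadjusted p under 0.05, 17 of the 23 were lower and 0 higher, beside 9.88% of all genes lower, and in 8 the groups did not overlap, beside 3.51%. By net share the median was -0.90, with 2 members higher, and 12 lower at that p, beside 10.1% of all genes lower on that scale. Negative net shares were set to 0, and members near a ratio of 1 lie at that floor, so the size of this median is uncertain. With silent-gene density as a covariate the median was -0.30, with 7 members lower at that p, beside 1210 of all 43902 genes. None was called, and none was above background in all 8 libraries: the median ratio of the list was 1.12 to 1.35 with EGFP and 1.05 to 1.19 with RXRa. Silent-gene density itself differed by -0.21, and genes with a mean ratio of 1 to 1.5 had a median of -0.13. Its members' summed level was 186 to 214 CPM with EGFP and 145 to 162 CPM with RXRa, 2 ranges that did not overlap.

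The 4 interferon-response genes named here were chosen after their values were seen. Oasl2, of the family of double-stranded RNA sensors, was at 11.2, 13.7, 13.9 and 10.1 CPM with EGFP and 6.28, 6.67, 6.47 and 8.16 CPM with RXRa, a log2 fold change of -0.82 ± 0.20 (edgeR, unadjusted p = 0.000266, adjusted p = 0.0954). Ifit1, which binds viral RNA, was at 6.46, 13.8, 13.4 and 9.52 CPM with EGFP and 6.43, 6.19, 4.39 and 3.25 CPM with RXRa, -1.11 ± 0.33, and EGFP replicate 1 and RXRa replicate 2 nearly met. In both genes the RXRa libraries lay at ratios of 0.812 to 1.44, the level of silent genes, and the EGFP libraries at 1.17 to 2.86. H2-D1, a class I major histocompatibility gene, differed by -0.85 ± 0.31 at ratios of 0.993 to 2.74, and Bst2, which tethers virus particles to the cell, by -0.77 ± 0.26 at ratios of 0.637 to 1.25.

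The promoters of Ifit1 and Bst2 are shown because they hold GAAANNGAAA, the core of the element through which interferon is known to act; capitals mark it on either strand. The stretches are chr19:34640745-34640853, plus strand, and chr8:71537547-71537642, minus strand (RefSeq, GRCm38.p6).
Ifit1 promoter: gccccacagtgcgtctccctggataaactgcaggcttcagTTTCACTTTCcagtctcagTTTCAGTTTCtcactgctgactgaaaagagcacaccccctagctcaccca
Bst2 promoter: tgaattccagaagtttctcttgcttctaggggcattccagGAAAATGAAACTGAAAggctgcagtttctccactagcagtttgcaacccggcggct
In Bst2 the capitals are 2 overlapping matches. The core was found in 10 of 22 promoter windows of 18 genes of the list (45.5%) and in 3.44% of all windows.

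In D2 males the interferon-response list had a median of -0.15, with 5 of 23 higher and 18 lower. Of these, 4 were lower at a p under 0.05 before adjustment, beside 7.72% of all genes in D2 males. In D1 females the median was -0.18. Ifit1 differed by -0.50 in D2 males and -1.39 in D1 females, Oasl2 by -0.12 and -0.49, and H2-D1 by -0.52 and -0.26, none of them called. The 6 microglia markers differed by a median of -0.06, with C1qa and Csf1r lower and P2ry12 higher at that p. Among the 4 blood cell markers tested, Igkc, an immunoglobulin light chain gene named after its values were seen, was at 1.56 ± 1.03 CPM with EGFP and 0.490 ± 0.158 CPM with RXRa, without overlap (log2 fold change -1.62 ± 0.48, edgeR, adjusted p = 0.0954), and 2 alpha globin genes were too low to test. The part of such cells in the result was not tested. In bulk or sorted samples, fewer cells of a type and less RNA per cell cannot be told apart.

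Differences between the effects were tested in the same fit. For the D2 effect of RXRa in females minus males, 0 of 43902 genes were called by edgeR (lowest adjusted p 0.903; 1327 genes at an unadjusted p under 0.05). For the female effect in D2 minus D1, 0 were called (lowest adjusted p 0.417; 1950 genes at an unadjusted p under 0.05). DESeq2 called 0 in both. The D2 male comparison taken alone also had 0 called by edgeR (lowest adjusted p 0.132; 8657 genes at an unadjusted p under 0.05). The 316 protein-coding genes above background in females had a male median of 0.63 by CPM, with 289 higher and 27 lower, beside 0.68 in females.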

How the data were processed

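Cell-type-specific RNA of the mouse nucleus accumbens was sequenced from ribosome-depleted total RNA with a stranded low-input kit, per the labels' protocols. The authors deposited whole-number counts per gene, made with Trimmomatic, HISAT2 and featureCounts on GRCm38, per the submitters' processing notes, which give no versions; the annotation release, the feature counted (exon or gene body) and the use of strand are not given in the sources used here. Gene bodies were taken from GENCODE M21, which matched 55394 of 55487 genes. Library sizes were summed without the 2 sequences of the vectors.

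The 35 sorted libraries with a group, 8 groups in all, entered 1 fit in edgeR 4.0.16 (R 4.3.3; TMM, filterByExpr by group, quasi-likelihood test, Benjamini-Hochberg adjustment, called at an adjusted p under 0.05), so all groups share the estimate of spread. Net shares were tested with limma 3.58.1 on log2(net share + 1), negative values set to 0. DESeq2 1.42.0 was an alternative, and single values were tested by exact permutation in SciPy 1.17.1. The edgeR step was tested on simulated data.

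Named genes were the markers, vector sequences and RXR and RAR genes; the 10 of smallest p in each direction among protein-coding genes above background with a mean CPM of at least 5 and groups that do not overlap; and up to 4 members of each list by p among those above background. Exceptions are said in the text. The members and lists were chosen with earlier results of these data known. Replicates within each group differed by more than sampling noise (chi-square per degree of freedom at least 2.50).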

Additional observations from a re-analysis of the deposited data

Results flagged for a closer look

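The D2 female library left out of the groups, because its title and vector label name different vectors, held the RXRa sequence of the vector at 188 CPM of library totals (2941 counts, beside 2823 of the GFP sequence). The EGFP libraries held at most 0.386 CPM of it and the RXRa libraries 204 to 557 CPM.

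In 4 cases 1 of the 4 libraries of a group stood far from the others: Adcy5 in EGFP replicate 3 (405 CPM), Gria1 in EGFP replicate 1 (544 CPM), Bst2 in EGFP replicate 1 (1.41 CPM), and the percent of counts above background in EGFP replicate 5 (29.1%). They were found among 127 groups of 4 values examined, of which chance gives about 1 in 20.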

How the results depend on the processing

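The number of genes called between RXRa and EGFP was 0 in the test as reported and under other normalizations, filters and fits, with these exceptions: 3027 with DESeq2, 2 on net CPM, 18 on net shares, 21 on net shares of genes above background only, and 1 with a replicate block. Leaving out 1 library at a time gave 0 to 6701 genes, and 0 to 61 among genes above background, both highest without RXRa replicate 3. The female minus male test gave 1 gene with genes above background only and silent-gene density as a covariate, and the D2 minus D1 test gave 1 on net CPM; both gave 0 to 0 when 1 library was left out. Silent-gene density differed by -0.28 to -0.13 when 1 library was left out, and the permutation test of endogenous Rxra by -0.10 to 0.038. Genes above background numbered 4210 at a ratio of 2, 828 at a ratio of 5 and 10654 with exon length. The cause of these changes was not tested.

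With a replicate block 1 gene was called, Ifit1 (-1.45, edgeR, adjusted p = 0.0471). EGFP replicate 1 and RXRa replicate 2 have no partner of the same number, so they did not inform the fold changes under the block. Same-numbered libraries had correlations of their deviations of -0.28, 0.02 and 0.18. Whether libraries of the same number were handled together is not given in the labels, and these correlations cannot decide it. The highest correlation of any pair was that of EGFP replicate 1 with RXRa replicate 5 (0.46), and EGFP replicate 3 correlated best with RXRa replicate 2 (0.42). Under the block Rxra stood at 0.083, Rxrb at -0.0099, Rara at 0.031, Rarg at 0.097 and mt-Cytb at -0.31.

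Other values of the opposite sign, all log2 fold changes, follow by setting. By net share Penk stood at -0.077, Rxra at 0.24, Rxrb at -0.56, Rara at 0.44, Rarg at 0.61, Chrm1 at -0.075, Egr1 at -0.37, Arc at -0.40, Malat1 at -0.16 and mt-Cytb at -0.26, and Penk, Chrm1, Egr1, Arc, Malat1 and mt-Cytb had these values over genes above background only as well. With density as a covariate over genes above background Penk stood at -0.15, Gpr6 at -0.0030, Chrm1 at -0.11, Grin1 at -0.071, Gabbr1 at -0.010, Egr1 at -0.55, Arc at -0.61 and Malat1 at -0.16. With density as a covariate over all genes Pdyn stood at -0.00032, Rxrb at -0.27, Egr1 at -0.37 and Arc at -0.44. With TMM over genes above background Pdyn stood at -0.12, Rxrb at -0.38, Egr1 at -0.15 and Arc at -0.13. Net CPM gave Rxra 0.20, Rara 0.53 and Rarg 0.66. For Rxra, Rara and Rarg most net values lay below 0 and were set to 0 on both net scales. Their SE on the net share were 0.71, 1.13 and 0.93, so these signs are uncertain. Library totals gave Rxrb -0.18, Egr1 -0.014 and Arc -0.0012. Genes above background alone gave Egr1 -0.23 and Arc -0.21. Without both RXRa replicates 4 and 5 Rxrb stood at -0.18, Egr1 at -0.029 and Arc at -0.17. Rxrb was at -0.013 with limma voom, and Rarg at 0.011 with RLE size factors and 0.015 with DESeq2. Leaving out 1 library gave -0.14 to 0.040 for Rxra, -0.22 to 0.13 for Rxrb, -0.14 to 0.039 for Rarg, -0.062 to 0.54 for Egr1, -0.090 to 0.52 for Arc and -0.023 to 0.82 for mt-Cytb.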

Other observations

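The D2 female library in no group had 15630501 counts. Its levels of Drd2, Penk and Adora2a were 687, 379 and 66.3 CPM of library totals, and 38.4% of its counts lay above the uniform background.

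Silent genes on the X chromosome had 0.752 to 0.882 times the density of autosomal ones in the 8 D2 female libraries and 0.338 to 0.423 times in the 9 D2 male libraries. On a per-million scale of counts above background, the GFP sequence of the vector stood at 1215, 2624, 1506 and 1096 in EGFP replicates 1, 3, 4 and 5 and at 832, 565, 788 and 484 in RXRa replicates 2, 3, 4 and 5, which did not overlap (exact two-sided permutation test, p = 0.0286, the smallest p possible).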
